A study of Mus musculus with 4 samples.

Results

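Chemokines are small secreted proteins that attract leukocytes through G protein-coupled receptors, and interleukins are secreted signals between leukocytes and between leukocytes and tissue cells. The set described here is the 65 mouse genes, 32 of chemokines and 33 of interleukins, among 21829 protein-coding genes of GENCODE M21 whose symbols read Ccl or Cxcl and a number, Cx3cl1, or Il and a number with at most one letter from a to f. They were followed in DNase-seq of 3T3-L1, an immortalized mouse embryo fibroblast line that serves as a preadipocyte model. The labels name no treatment, give no genotype beyond the strain C57BL/6J, and number 2 biosamples with 2 technical libraries each, without saying whether the biosamples were separate cultures. DNase-seq maps sites where chromatin is open to cutting by the enzyme DNase I, and each biosample has 1 list of 150-bp peaks and 1 list of hotspots, which are wider regions of enriched cutting, both in the assembly mm10. An open site records access to DNA and not transcription.

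Most chemokine genes and some interleukin genes lie in tandem clusters that arose by gene duplication. Many genes of both families are silent in unstimulated fibroblasts and switched on by inflammatory signals. Fibroblasts and preadipocytes are known sources of CCL2, CXCL1, IL-6 and CXCL12, whereas IL-2, IL-4 and IL-17A are products of lymphocytes. The promoters of the inflammatory members are textbook targets of NF-kB, AP-1, C/EBP and interferon-regulated factors.

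The list of biosample 1 held 298793 peaks with scores of 4 to 150 and a median of 65, against 97430 peaks with scores of 1 to 150 and a median of 33 in biosample 2. The score is the authors' own value for each peak and was read only as a percentile within its list, so that 100 is the strongest end of a list, and scores are not compared between lists. No read counts were in the files, so depth was unknown, and with 1 pooled list per biosample there was no spread between replicates and no test. Intervals below are 95% Wilson intervals and cover counting error over genes or peaks only. All 8 fibroblast markers (Col1a1, Col1a2, Vim, S100a4, Pdgfra, Pdgfrb, Thy1 and Fn1) had a promoter peak in both lists, and none of 4 epithelial markers had one in either. Among leukocyte markers, Ptprc, Cd3e, Cd79a, Itgam and Adgre1 had none, Csf1r had one in both lists and Spi1 had one in the list of biosample 1 alone. Ly6a and Plin1 had one in both lists, Dlk1, Fabp4 and Lep in that of biosample 1 alone, and Cd34, Adipoq and Cfd in neither. Among endothelial genes Pecam1 and Cdh5 had one in both lists, Tek in that of biosample 1 alone and Kdr in neither.

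Sequences of peaks at Cxcl1, Ccl8 and Cxcl10 are shown first, because the results turn on which start sites were open. They are not the leading chemokine genes as a set. Ccl2, Cxcl5 and Ccl7 ranked above Ccl8 by mean percentile over both lists, but had no RefSeq promoter entry and are not printed. Ccl25 also ranked above Ccl8 and was left out because its peak also lies near a start of Elavl1. A promoter peak is a peak with any base within 1 kb of a start site of a protein-coding transcript of the gene. The sequences were read from RefSeq GRCm38.p6, whose chromosomes are those of mm10, and capitals mark letters of 4 fixed motifs searched on both strands: AP-1 (TGANTCA), NF-kB (GGG, any 3 bases and TTCC), C/EBP (TTGCNNAA) and the interferon-stimulated response element, ISRE (GAAA, any 2 bases and GAAA). The Cxcl1 peak lies at chr5:90891076-90891225 on the plus strand, centred 90 bp before the start site, and holds NF-kB letters at 3 positions, 2 of which overlap. The Ccl8 peak at chr11:82116136-82116285 lies inside the short gene, centred 1026 bp after its start on the plus strand. The Cxcl10 peak at chr5:92348896-92349045 is printed on the minus strand, the strand of the gene, and was chosen after its value was seen.
Cxcl1 promoter peak: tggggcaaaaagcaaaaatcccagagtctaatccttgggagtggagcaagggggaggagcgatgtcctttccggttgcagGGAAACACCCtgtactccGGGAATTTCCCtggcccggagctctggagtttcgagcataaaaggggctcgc
Ccl8 promoter peak: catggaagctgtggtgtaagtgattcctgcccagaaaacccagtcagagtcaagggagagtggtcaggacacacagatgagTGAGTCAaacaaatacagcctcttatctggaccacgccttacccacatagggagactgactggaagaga
Cxcl10 promoter peak: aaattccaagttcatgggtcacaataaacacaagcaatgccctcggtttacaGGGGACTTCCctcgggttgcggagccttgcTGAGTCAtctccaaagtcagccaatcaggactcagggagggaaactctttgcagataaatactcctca

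For Il6 and Cxcl2 the 300 bases from RefSeq's promoter table are shown, 250 before and 50 after the RefSeq start, both on the plus strand, at chr5:30012864-30013163 and chr5:90903649-90903948. Il6 had open chromatin here in both lists and Cxcl2 only low-ranking peaks in the list of biosample 1, although both windows carry NF-kB letters. In Il6 the AP-1 letters began 249 bases before the start, the C/EBP letters 128 before it and the NF-kB letters 44 before it. The AP-1 letters lay inside the upstream Il6 peak of biosample 1, which spans chr5:30012836-30012985, and the NF-kB letters lay between its 2 peaks and inside its hotspot. In Cxcl2 the NF-kB letters began 97, 96 and 78 bases before the start. A match of letters is a description of the sequence and not a binding site.
Il6 promoter: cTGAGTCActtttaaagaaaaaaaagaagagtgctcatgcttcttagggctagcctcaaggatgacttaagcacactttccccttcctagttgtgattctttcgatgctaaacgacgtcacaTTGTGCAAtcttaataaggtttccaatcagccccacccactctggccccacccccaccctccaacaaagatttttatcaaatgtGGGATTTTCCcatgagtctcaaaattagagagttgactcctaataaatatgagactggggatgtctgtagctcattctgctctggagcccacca
Cxcl2 promoter: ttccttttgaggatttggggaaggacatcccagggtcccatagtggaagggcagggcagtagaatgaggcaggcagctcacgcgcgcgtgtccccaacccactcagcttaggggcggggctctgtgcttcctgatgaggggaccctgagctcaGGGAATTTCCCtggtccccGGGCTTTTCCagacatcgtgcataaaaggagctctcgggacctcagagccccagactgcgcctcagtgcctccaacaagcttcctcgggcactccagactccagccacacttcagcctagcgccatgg

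Promoter peaks were present at a minority of the 65 genes. In the list of biosample 1, 25 of 65 (38.5%, 27.6 to 50.6) had one, beside 62.6% of all protein-coding genes. In the list of biosample 2 it was 14 of 65 (21.5%, 13.3 to 33), beside 51.9% of all protein-coding genes. The same 14 had a peak in both lists, beside 51.8% of all genes, 11 (16.9%, 9.72 to 27.8) had one in the list of biosample 1 alone, beside 10.8% of all genes, and none had one in that of biosample 2 alone, beside 0.101% of all genes. The remaining 40 (61.5%, 49.4 to 72.4) had a peak in neither list, beside 37.3% of all genes. Chemokine genes were open more often than interleukin genes in these counts. Of 32 chemokine genes, 10 (31.2%, 18 to 48.6) had a peak in both lists and 16 in neither, against 4 of 33 interleukin genes (12.1%, 4.82 to 27.3) in both and 24 in neither. These 2 intervals overlap, and the difference was not tested.

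**Figure D1:**
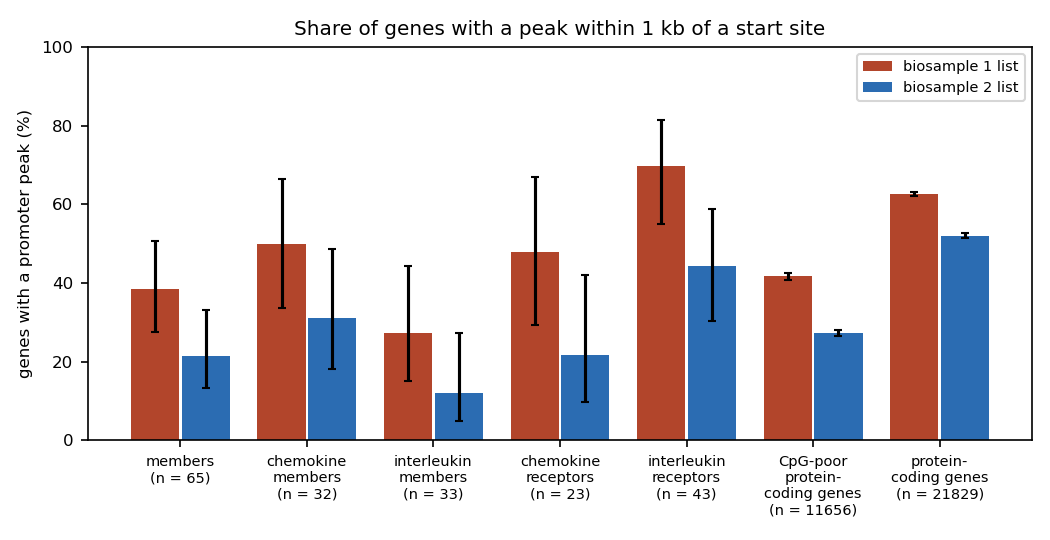
Share of genes (%) with a peak within 1 kb of a start site in the list of biosample 1 (red) and of biosample 2 (blue), for the members, their receptors, CpG-poor genes and all protein-coding genes, with 95% Wilson intervals for counting error as bars. The members sit at 38.5% and 21.5%, below 62.6% and 51.9% of all protein-coding genes.

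A promoter was called CpG-rich when the observed over expected CpG ratio in the 1000 bp around it was at least 0.6. By that measure 60 of the 65 members were CpG-poor. Of these, 12 (20%, 11.8 to 31.8) had a promoter peak in both lists, beside 27.1% of all CpG-poor genes, and 39 (65%, 52.4 to 75.8) had one in neither, beside 58.1%. Both shares of all CpG-poor genes lie inside the members' intervals. The 5 CpG-rich members were Cxcl12 and Ccl25, with a peak in both lists, Cxcl16 and Il17d, with one in the list of biosample 1 alone, and Cxcl14, with none, beside 80.2% of all CpG-rich genes with a peak in both. The 12 CpG-poor promoters open in both lists included those of Il6, Ccl2, Cxcl1 and Cxcl5.

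Among the chemokines that attract neutrophils through CXCR2, Cxcl1 and Cxcl5 had strong promoter peaks in both lists. The strongest Cxcl1 peak scored 141 (percentile 97.5) in biosample 1 and 74 (percentile 92.6) in biosample 2. The strongest Cxcl5 peak, 33 bp after the start in biosample 1 and 73 bp after it in biosample 2, had scores of 139 (96.8) and 70 (90.6). Cxcl3, a close relative of Cxcl1, had 1 peak, in biosample 1 alone, with a score of 103 (78.8) at 392 bp before its start. Cxcl2, known as a rapidly induced gene in macrophages, had 5 peaks in biosample 1 with scores of 17 to 38, the highest at percentile 11.8, and none in biosample 2. Cxcl15, which is known from mouse lung epithelium, had none in either list.

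In a chemokine gene cluster of chromosome 11, Ccl2, Ccl7 and Ccl8 were open in both lists. Ccl2, the main monocyte chemoattractant, had a peak 60 bp before its start that scored 144 (98.6) in biosample 1 and 76 (93.5) in biosample 2, at the same coordinates in both. A further Ccl2 peak 900 bp upstream had a score of 132 (93.8) in biosample 1 and did not meet a peak of biosample 2. Ccl7 had a peak 21 bp before its start that scored 137 (96.0) in biosample 1 and 64 (87.0) in biosample 2. In Ccl8 the strongest peak lay within the gene, with scores of 140 (97.2) and 56 (80.9), while the peak next to the start reached 79 (62.7) in biosample 1 and 18 (16.2) in biosample 2. Ccl11 and Ccl12 of the same gene cluster, and Ccl24 and Ccl26, had no promoter peak in either list.

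Cxcl12, a homeostatic chemokine that retains stem cells and lymphocytes through CXCR4, had 5 promoter peaks in biosample 1 and 1 in biosample 2. Its strongest peak scored 131 (93.3) in biosample 1 and 43 (66.3) in biosample 2. Ccl25, a thymus and gut chemokine, had scores of 140 (97.2) and 65 (87.7), but this CpG-rich site also lies within 1 kb of a start site of Elavl1, a widely expressed RNA-binding protein gene, and cannot be assigned to either. Cx3cl1, the membrane-bound chemokine fractalkine, had 80 (63.5) and 26 (35.4). Cxcl10, an interferon-induced CXCR3 ligand, had 117 (86.7) and 26 (35.4), and its neighbour Cxcl9 had 1 peak of 54 (36.6) in biosample 1 alone. Ccl9, a CCR1 ligand of mouse, had 108 (81.7) and 31 (46.3). In the list of biosample 1 alone, Ccl20, the CCR6 ligand, had a score of 60 (44.5), Cxcl17, a mucosal chemokine, 42 (17.8), and Cxcl16, a membrane-bound CXCR6 ligand whose peak also lies near a start of Zmynd15, 38 (11.8).

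Il6 led the interleukins. This gene, at chr5:30013114-30019981, encodes the main inducer of the hepatic acute-phase response. Its 2 promoter peaks had scores of 143 (98.3) and 138 (96.4) in biosample 1, and 87 (97.1) and 77 (93.9) in biosample 2. Of the 14 members open in both lists it had the highest percentile in biosample 2. Its hotspot was 2193 bp wide in biosample 1, a width that 1.89% of hotspots of that list reached, and 1150 bp in biosample 2, reached by 2.33%. The median hotspot was 272 bp in biosample 1 and 273 bp in biosample 2.

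Il18 and Il33, IL-1 family cytokines of barrier and stromal cells, had promoter peaks in both lists. Il18 had peaks at 2 start sites in both lists, with a strongest score of 124 (90.1) in biosample 1 and 41 (63.5) in biosample 2 at an internal start site, while its first start site shares a peak with Bco2. Il33, which encodes a nuclear alarmin of fibroblasts, had scores of 88 (69.2) and 23 (28.4). Il23a, the p19 subunit of IL-23, had 77 (61.1) and 15 (9.4), so its biosample 2 peak ranked near the weak end of that list. In the list of biosample 1 alone, Il16, a T-cell chemoattractant precursor, had a strongest score of 101 (77.6), Il11, an IL-6 family cytokine of stromal cells, 95 (73.8), Il24 of the IL-20 subfamily 67 (52.2), Il15, a survival factor for NK and CD8 T cells, 60 (44.5), and Il17d 43 (19.5). None of the promoter peaks of these 5 genes met a peak of biosample 2, which largely follows from the lack of a promoter peak there.

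**Figure D2:**
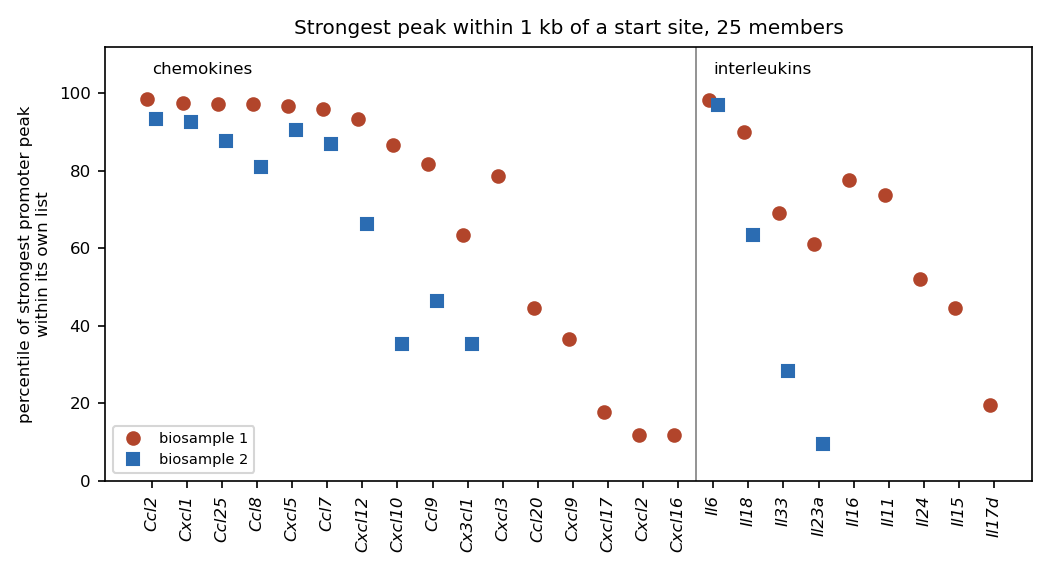
Percentile of the strongest promoter peak within its own list (vertical axis) for the 25 members with one, biosample 1 as red circles and biosample 2 as blue squares, chemokines left of the line. Il6, Ccl2, Cxcl1 and Cxcl5 lie above 90 in both lists, and the 11 members open in biosample 1 alone carry no blue square.

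The 40 members with no promoter peak in either list included the T-helper cytokines Il2, Il3, Il4, Il5, Il9, Il13, Il17a, Il17f, Il21 and Il22, the IL-12 and IL-27 subunits Il12a, Il12b and Il27, the IL-10 and IL-20 group Il10, Il19 and Il20, and the inflammatory pair Il1a and Il1b. Il7, Il31, Il34, Il17b, Il17c and Il25 complete the interleukins. The chemokines were Ccl1, Ccl3, Ccl4, Ccl5, Ccl6, Ccl11, Ccl12, Ccl17, Ccl19, Ccl22, Ccl24, Ccl26, Ccl28, Cxcl13, Cxcl14 and Cxcl15. The window bound mattered for some of them. Within 2000 bp of a start site, 21 members had a peak in both lists, beside 55.5% of all genes, the added members being Ccl1, Ccl17, Cxcl17, Il12b, Il15, Il16 and Il17c. The nearest biosample 1 peak centre lay 1298 bp from the Ccl17 start, 1350 bp from that of Il27 and 1434 bp from that of Il3, genes chosen here after their values were seen. Ccl19, a lymph node chemokine, stood at the other end, with its nearest peak centre 120568 bp away in biosample 1 and 120548 bp away in biosample 2.

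Distal peaks, those over 1 kb from every protein-coding start site, were denser around the members than around genes in general. In the window of the gene body plus 50 kb on each side, the median was 18.2 peaks per 100 kb for the 65 members and 13.5 for all protein-coding genes in biosample 1. In biosample 2 it was 6.2 for the members and 3.74 for all genes. Of the 65 members, 46 lay above the median of all genes in biosample 1 and 50 in biosample 2. Chemokine genes had medians of 21.7 and 7.79 in biosamples 1 and 2, and interleukin genes 13.7 and 4.93, so in biosample 1 the interleukins lay near the value of all genes. Windows of neighbouring members overlap, so these are not independent genes.

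The density was also above that of genes of the same promoter state, matched on nothing else, for members with no peak at their own start site. The 40 members with no promoter peak had a median of 16.7 distal peaks per 100 kb in biosample 1 and 5.89 in biosample 2, beside 7.54 and 1.94 for all protein-coding genes without a promoter peak. Of those 8140 genes, 1319 had no distal peak at all in biosample 1 and 2405 had none in biosample 2, against 1 of the 40 members in each list. In the 14 members open in both lists the medians were 22.5 and 7.33, beside 15.9 and 4.49 for all genes open in both.

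**Figure D3:**
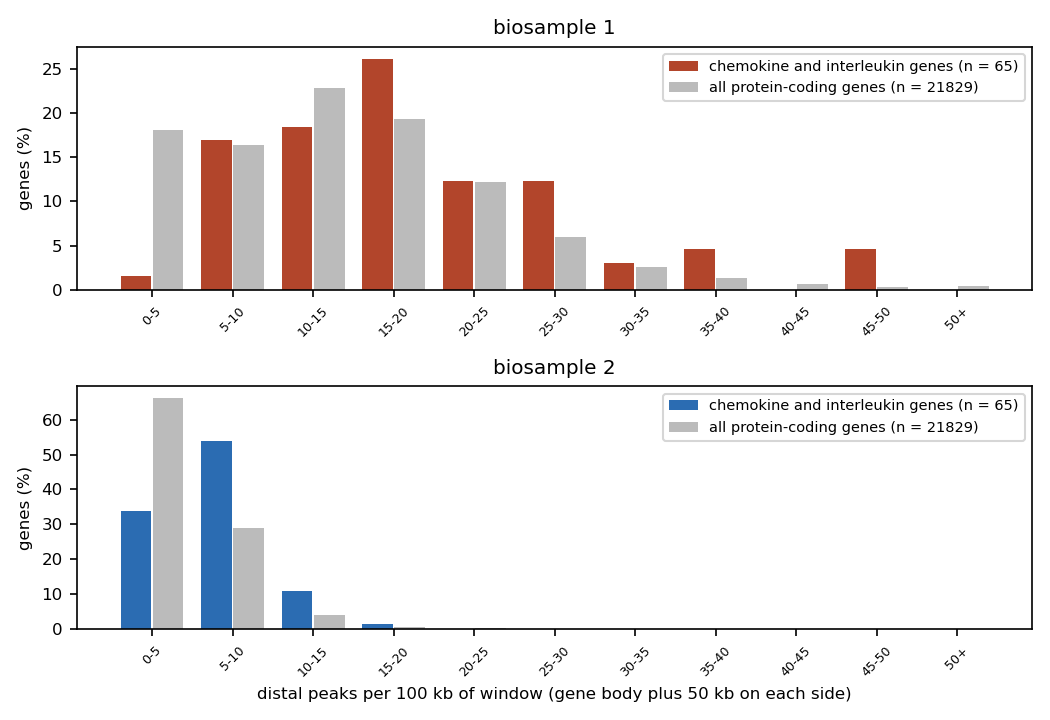
Share of genes (%) by number of distal peaks per 100 kb of window, for the 65 members (coloured) and all 21829 protein-coding genes (grey), biosample 1 above biosample 2. The 0 to 5 class of biosample 1 holds 1 member, Ccl19, and 3955 of all genes.

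Each distal peak counted once, the windows held 1024 peaks of biosample 1 and 336 of biosample 2. Of the 1024 peaks, 331 (32.3%, 29.5 to 35.3) shared at least 1 bp with a biosample 2 peak, beside 27.9% of all distal peaks of that list. In the other direction 327 of 336 (97.3%, 95 to 98.6) overlapped a biosample 1 peak, beside 94.7%. The members' distal peaks had a median percentile of 56.0 in biosample 1 and 55.6 in biosample 2, beside 46.9 and 46.3 for all distal peaks. In the top 10% of its list by score stood 107 of them (10.4%, 8.72 to 12.5) in biosample 1, beside 7.46% of all distal peaks, and 37 (11%, 8.1 to 14.8) in biosample 2, beside 7.23%.

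The 10 members with the densest distal peaks in biosample 1 were 8 chemokine genes and 2 interleukin genes. Cxcl12 had 49.6 peaks per 100 kb (56 peaks), Cxcl2 49.0 (50 peaks) and Cxcl1 48.1 (49 peaks), against 6.2, 10.8 and 7.85 per 100 kb in biosample 2. With the peaks of a weak run described below left out but the window length kept, Cxcl2 had 27.4 and Cxcl1 26.5 in biosample 1. Ccl7 had 38.3, Ccl2 37.3 and Ccl11 37.1, windows that overlap almost entirely, and Cxcl15 had 29.5 and Cxcl3 29.0. Il34, which encodes a ligand of the CSF1 receptor, had 34.7 (57 peaks) in biosample 1 and 11.6 (19 peaks) in biosample 2. Il17b, an IL-17 family gene, had 31.6 and 16.7. Neither Il34 nor Il17b had a promoter peak. Il6 stood apart from the other leading genes, with 8.42 distal peaks per 100 kb (9 peaks) in biosample 1 and 1.87 (2 peaks) in biosample 2.

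Among the 40 strongest distal peaks of each list in the windows, 9 were assigned to Il34 as the nearest member, in both lists. Of these, 3 in each list lay in introns of the neighbouring genes Vac14 or Sf3b3, those in Vac14 nearest to the start of Mtss1l, and cannot be assigned to Il34 from these data. An intronic peak 11.0 kb after its start had scores of 146 (99.3) in biosample 1 and 98 (99.0) in biosample 2. A peak 2.8 kb before the start had scores of 146 (99.3) and 92 (98.1), and one 4.2 kb before it had 140 (97.2) and 99 (99.1). Il17b had a peak 21.4 kb before its start with scores of 147 (99.5) and 87 (97.1). These genes had sites near the strong end of both lists with no peak at the start of a coding transcript. When the starts of noncoding transcripts were counted too, an alternative added after seeing the data, Il17b had a promoter peak in both lists and Il34 in that of biosample 1.

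Within 200 kb of each other, 36 of the members fell into 11 clusters of one family. The strongest distal peaks of the clusters whose nearest gene is a member with a RefSeq promoter entry, and which ranked at or above percentile 90 in both lists, are printed on the plus strand to show what the leading distal sites look like. The Cxcl1 peak, chr5:90876176-90876325, is intergenic and 15.0 kb before the Cxcl1 start. The Ccl8 peak, chr11:82139576-82139725 as given in biosample 2, is intergenic and 24.5 kb after the Ccl8 start. The Cx3cl1 peak, chr8:94788236-94788385, is intergenic and 16.1 kb after the start, and the Il1a peak, chr2:129330736-129330885, is intergenic and 20.8 kb before the start. Capitals mark AP-1 letters in the Cxcl1 and Cx3cl1 peaks and NF-kB letters in the Il1a peak, and the Ccl8 peak held none of the 4 motifs.
Cxcl1 distal peak: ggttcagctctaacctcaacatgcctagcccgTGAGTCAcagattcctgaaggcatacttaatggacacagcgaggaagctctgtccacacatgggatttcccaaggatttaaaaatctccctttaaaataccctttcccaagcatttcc
Ccl8 distal peak: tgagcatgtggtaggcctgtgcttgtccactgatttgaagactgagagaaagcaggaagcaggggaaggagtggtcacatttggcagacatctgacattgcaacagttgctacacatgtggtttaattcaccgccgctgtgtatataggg
Cx3cl1 distal peak: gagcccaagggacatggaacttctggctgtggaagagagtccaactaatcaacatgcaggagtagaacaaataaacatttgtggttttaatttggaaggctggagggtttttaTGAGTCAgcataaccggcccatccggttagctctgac
Il1a distal peak: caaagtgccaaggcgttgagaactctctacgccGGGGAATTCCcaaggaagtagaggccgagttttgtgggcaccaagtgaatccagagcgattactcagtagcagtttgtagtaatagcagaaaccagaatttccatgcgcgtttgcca

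The cluster of CXCR2 ligands on chromosome 5, Cxcl5, Cxcl3, Cxcl15, Cxcl1 and Cxcl2, spans 146.6 kb and was the densest of the 11 in biosample 1, with 34.5 distal peaks per 100 kb (85 peaks) and 8.11 in biosample 2 (20 peaks). All 20 distal peaks of biosample 2 overlapped one of biosample 1, as did 94.7% of all distal peaks of that list. The distal Cxcl1 peak printed above scored 148 (99.7) in biosample 1 and 108 (99.7) in biosample 2, which made it the strongest distal peak of all members in biosample 2. Promoter peaks in both lists were present at the 2 genes Cxcl5 and Cxcl1, while Cxcl3 and Cxcl2 had them in biosample 1 alone.

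The density at the Cxcl2 end of this cluster rested in part on a run of mostly weak peaks. In biosample 1, a hotspot of 7005 bp lay upstream of Cxcl2 and one of 5830 bp covered most of the gene and ran on downstream, widths reached by 44 (0.0178%) and 88 (0.0356%) of 247031 hotspots. The 14 kb from the first base of the one to the last base of the other held 27 peaks of biosample 1, with a median percentile of 4.2 and scores of 17 to 126. It held 1 peak of biosample 2. With the distal peaks of this stretch left out, Cxcl1 had 26.5 and Cxcl2 27.4 per 100 kb in biosample 1, above the median of all genes. These values still divide by the whole window, stretch included, and so lie below the density of the remaining sequence. The rank of both genes over the remaining length was not computed. Whether the stretch differs between the biosamples for a technical reason was not tested.

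**Figure D4:**
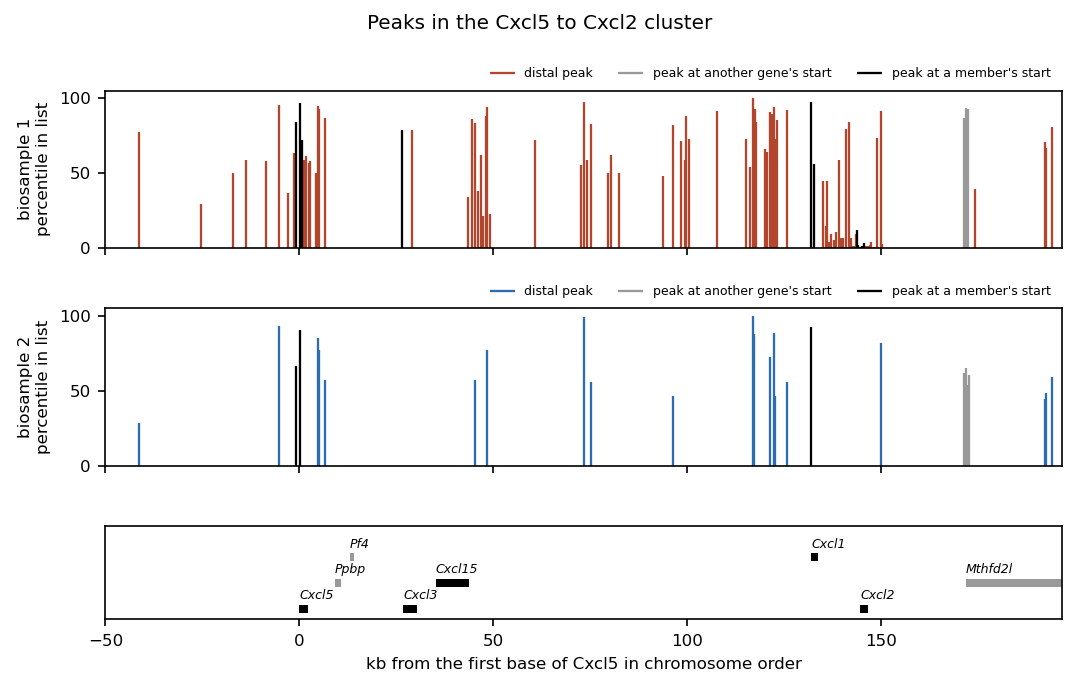
Peaks of the Cxcl5 to Cxcl2 cluster by distance (kb) from the first base of Cxcl5, with height as the percentile within the list, biosample 1 above biosample 2 and gene bodies below (members black, other genes grey). The peak 15.0 kb before Cxcl1 is at percentile 99.7 in both lists, and the dense low peaks around Cxcl2 appear in biosample 1.

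On chromosome 11, the cluster of Ccl2, Ccl7, Ccl11, Ccl12, Ccl8 and Ccl1 had 22.4 distal peaks per 100 kb in biosample 1 (83 peaks) and 6.21 in biosample 2 (23 peaks). Its span of 270.1 kb rests on 1 long annotated noncoding transcript of Ccl1. Of the 83 peaks, 24 (28.9%) met a peak of biosample 2, near the 27.9% of all distal peaks, and 14 (16.9%) were in the top 10% of the list, beside 7.46%. The strongest in biosample 1 lay 9.3 kb after the start of Ccl11, the eosinophil attractant eotaxin, and scored 146 (99.3) in biosample 1 and 96 (98.8) in biosample 2. The strongest in biosample 2 was the Ccl8 peak printed above, which scored 144 (98.6) in biosample 1 and 100 (99.2) in biosample 2. A peak 2.4 kb before the Ccl2 start, within an intron of the overlapping gene Gm17268, had scores of 144 (98.6) and 92 (98.1), and another 23.6 kb before it had 143 (98.3) and 88 (97.4). Ccl11 and Ccl12, with no peak at their own start sites, lay between Ccl7 and Ccl8, which had one in both lists.

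**Figure D5:**
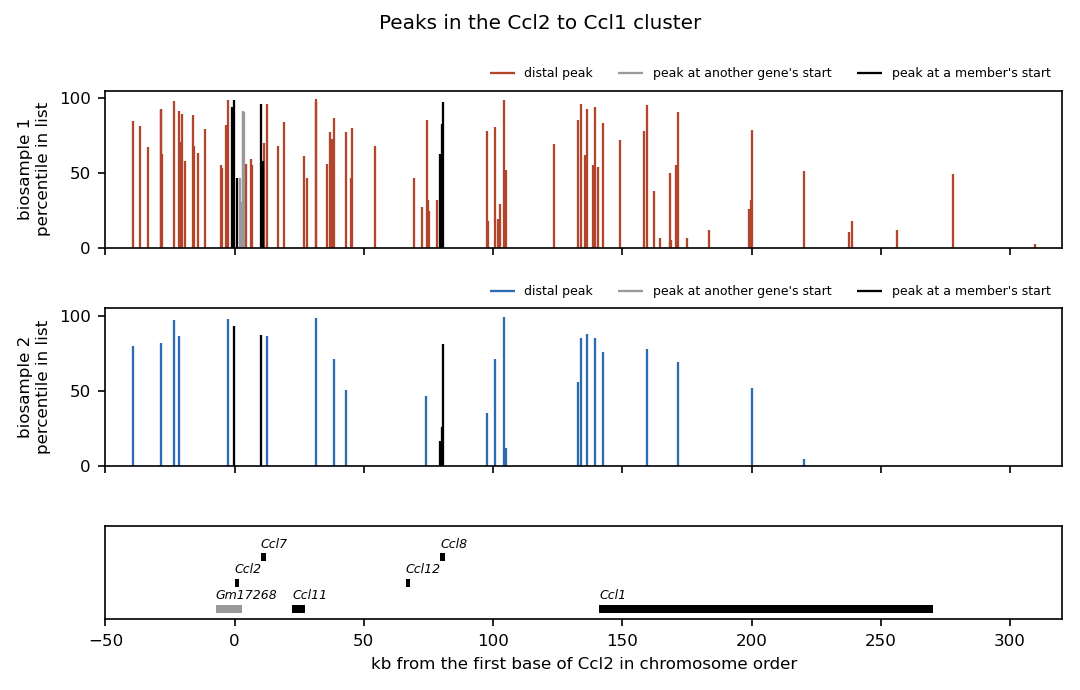
Peaks of the Ccl2 to Ccl1 cluster by distance (kb) from the first base of Ccl2, with height as the percentile within the list, biosample 1 above biosample 2 and gene bodies below (members black, other genes grey). Peaks at the starts of Ccl2, Ccl7 and Ccl8 (black) appear in both lists, and no black peak stands at Ccl11, Ccl12 or Ccl1.

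The second chemokine cluster of chromosome 11, Ccl5, Ccl9, Ccl6, Ccl3 and Ccl4, encodes attractants of myeloid and T cells. It had 20.9 distal peaks per 100 kb in biosample 1 and 7.95 in biosample 2, with a promoter peak at Ccl9 alone. Its strongest distal peak lay 4.4 kb before the start of Ccl5, which had no promoter peak, with scores of 147 (99.5) in biosample 1 and 94 (98.5) in biosample 2. An intronic peak of Ccl9, 1.3 kb after its start, had scores of 146 (99.3) and 92 (98.1), well above the promoter peak of that gene in both lists.

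In the Ccl22, Cx3cl1 and Ccl17 cluster of chromosome 8, distal density was 24.6 per 100 kb in biosample 1 and 13.2 in biosample 2, the highest of the 11 clusters in biosample 2. The Cx3cl1 peak printed above had scores of 142 (97.9) and 75 (93.0). The strongest peak in biosample 1, 42.1 kb before Ccl22 with scores of 144 (98.6) and 65 (87.7), lies nearer to Pllp than to a chemokine gene. For Ccl26 and Ccl24 the strongest site, 41.0 kb after the Ccl26 start with scores of 149 (99.9) and 104 (99.5), lies in an intron of Hip1, and cannot be assigned to either gene from these data. Cxcl9 and Cxcl10 had 20.4 distal peaks per 100 kb in biosample 1 and 7.06 in biosample 2, and their strongest, with scores of 134 (94.7) and 70 (90.6), lay in an intron of Art3.

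Each of the 5 interleukin clusters had fewer distal peaks per 100 kb than each of the 6 chemokine clusters, in both lists. Il17a and Il17f had 4.38 in biosample 1 and 1.88 in biosample 2, with a strongest score of 88 (69.2) and 23 (28.4). Il2 and Il21 had 10.8 and 4.24, and their strongest peak in biosample 1, 2.5 kb before Il2, had 131 (93.3) and 57 (81.8). Il24, Il20, Il19 and Il10 had 11.1 and 4.94, with none of their distal peaks in the top 10% of either list. Il1a and Il1b had 12.8 and 5.83, and the Il1a peak printed above had scores of 141 (97.5) and 70 (90.6). Il4, Il13 and Il5 had 18 and 4.95, and their strongest peak, with scores of 140 (97.2) and 79 (94.7), lay nearest to the start of Irf1, a transcription factor gene of the interferon response.

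Receptor genes were chosen by symbol. Of 43 interleukin receptor genes, 30 (69.8%, 54.9 to 81.4) had a promoter peak in biosample 1 and 19 (44.2%, 30.4 to 58.9) in both lists, against 9 of 33 interleukin genes (27.3%, 15.1 to 44.2) in biosample 1 and 4 in both. The shares of all protein-coding genes, 62.6% in biosample 1 and 51.8% in both, lie inside the receptor intervals, and the difference between receptors and ligands was not tested. The strongest included Crlf2, a subunit of the TSLP receptor, with scores of 146 (99.3) in biosample 1 and 95 (98.6) in biosample 2, and Il11ra1, the IL-11 receptor, with 139 (96.8) and 79 (94.7). The IL-6 receptor subunits Il6ra, with 130 (92.9) and 61 (84.9), and Il6st, with 135 (95.1) and 53 (78.1), were open in both lists, as was their ligand gene. The IL-33 receptor gene Il1rl1, with 136 (95.5) and 73 (92.1), and the IL-1 receptor gene Il1r1, with 136 (95.5) and 71 (91.1), were also open, the second with no promoter peak at Il1a or Il1b. Receptor genes known from lymphocytes were divided. Il2rb, with 133 (94.2) and 46 (70.3), and Il18rap, with 114 (85.1) and 39 (60.5), were open in both lists, Il7r, Il2rg, Il12rb2 and Il9r had a promoter peak in that of biosample 1 alone, and Il2ra, Il21r and Il23r had none.

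Of 23 chemokine receptor genes, 11 (47.8%, 29.2 to 67) had a promoter peak in biosample 1 and 5 (21.7%, 9.66 to 41.9) in both lists, beside the same 62.6% and 51.8% of all genes. The leading one was Ackr3, a scavenging receptor of CXCL12, with scores of 124 (90.1) in biosample 1 and 48 (72.7) in biosample 2. The others with a peak in both were Ccr1, Ccr6, Ccr9 and Ccr10, all with lower ranks. Their percentiles were 68.5, 68.5, 66.4 and 73.2 in biosample 1, and 7.4, 35.4, 23.5 and 42.1 in biosample 2. Whether peaks of receptor genes also lie near starts of other genes was not examined. Cxcr4, the signalling receptor of CXCL12, and Cxcr2 and Ccr2, the receptors of the open ligands Cxcl1 and Ccl2, had no promoter peak in either list.

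The 4 motifs were counted over all peaks of the members. In biosample 1, AP-1 letters were in 9 of 65 promoter peaks (13.8%, 7.46 to 24.3), beside 7.22% of all promoter peaks, and NF-kB letters in 5 (7.69%, 3.33 to 16.8), beside 3.09%. C/EBP letters were in 2 (3.08%), beside 5.21%, and ISRE letters in 1 (1.54%), beside 1.75%. Of the 22 promoter peaks of biosample 2, AP-1 letters were in 5 (22.7%, 10.1 to 43.4), beside 6.52%, C/EBP letters in 3 (13.6%, 4.75 to 33.3), beside 4.79%, NF-kB letters in 2 (9.09%, 2.53 to 27.8), beside 3.49%, and ISRE letters in none, beside 1.79%. Among distal peaks of the members in biosample 1, AP-1 letters were in 25.1%, beside 24.4% of all distal peaks, and NF-kB letters in 3.52% (2.55 to 4.83), beside 2.41%. In biosample 2 the distal shares were 31.5% beside 31.2% for AP-1, and 5.36% (3.42 to 8.31) beside 2.6% for NF-kB. C/EBP letters were in 7.62% of the members' distal peaks in biosample 1, beside 7.83%, and ISRE letters in 2.93%, beside 2.06%. These intervals treat peaks as independent, and the differences were not tested. Most members are CpG-poor, and the shares of all promoter peaks were not restricted to CpG-poor promoters. The AP-1 and C/EBP shares of distal peaks in biosample 1 were close to those of all distal peaks. The NF-kB interval lay above the share of all distal peaks in both lists, narrowly in biosample 1 (2.55 against 2.41). The AP-1 interval of promoter peaks also lay above its share in both lists, narrowly in biosample 1 (7.46 against 7.22). The lists are not independent here, since 327 of the 336 distal peaks of biosample 2 overlapped a biosample 1 peak.

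RefSeq promoter windows of 300 bases were matched by symbol for 46 of the 65 members and for 16515 protein-coding genes. Most members are CpG-poor, and the shares of all genes given here were not restricted to CpG-poor promoters. Of the 46, 10 had a promoter peak in both lists and 29 in neither. Ccl2, Ccl7, Cxcl5 and Il23a, which had one in both lists, were among the members without an entry and were not searched here. NF-kB letters were in 10 of the 46 members (21.7%), beside 6.64% of all matched genes: Ccl1, Ccl9, Ccl20, Cxcl1, Cxcl2, Cxcl3, Cxcl10, Il6, Il9 and Il16. Of these, Il6, Cxcl1, Cxcl10 and Ccl9 had a promoter peak in both lists, Cxcl2, Cxcl3, Ccl20 and Il16 in that of biosample 1 alone, and Ccl1 and Il9 in neither. AP-1 letters were in 10 members (21.7%), beside 8.16%, ISRE letters in 5 (10.9%), beside 4.02%, and C/EBP letters in 6 (13%), beside 11.5%. Of the 10 members with a promoter peak in both lists, AP-1 letters were in 3, C/EBP letters in 2 and ISRE letters in 1. Of the 29 with one in neither, these letters were in 4, 3 and 4. The split by promoter state was not made over all genes and was not tested. Il6, Cxcl10 and Il16 each held 3 of the 4 motifs. These were AP-1, NF-kB and C/EBP letters in Il6, whose sequence is shown above, and in Il16. In Cxcl10 they were AP-1, NF-kB and ISRE letters.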

How the data were processed

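The 4 DNase-seq libraries of 3T3-L1 cells were grouped by the biological replicate number of the labels. Per the labels, the authors aligned the pooled libraries of a biosample together in mm10 and derived its peaks and hotspots from that alignment. Aligner and peak caller are not given in the sources used here. Each deposited peak has a score whose definition is not given there either, and it was ranked within its list by mid-rank percentile. Each deposited hotspot has a −log10 value of its significance, which was not used, since hotspots entered by position and width alone. Members and gene lists were chosen with earlier results of these data known. Genes came from GENCODE M21, start sites from protein-coding transcripts (54355 sites). Values are given for every member with a promoter peak, the 10 members with the densest distal peaks and the strongest distal peak of each cluster. The other members are named only, and exceptions are marked. Python 3.11.15, NumPy 2.4.6, SciPy 1.17.1, pysam 0.24.0 and samtools 1.23.1 were used, and the interval scripts were tested on simulated data. No hypothesis test was run. Depth is unknown, since read counts are in none of the files. Alternatives varied the promoter window, start sites, regions, score minimum, flank and overlap.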

Additional observations from a re-analysis of the deposited data

How the results depend on the processing

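No paired analysis was possible because each biosample has 1 list and no result comes from a test. With the stronger 50% of each list, members with a promoter peak in both lists and in that of biosample 2 were 9 in place of 14, without Ccl9, Cx3cl1, Cxcl10, Il23a and Il33, beside 46.2% of all genes. With the biosample 1 list shortened to the length of the other, 15 members in place of 25 had a promoter peak in it, beside 52.9% of all genes, and 12 in both lists, beside 50.6%. The distal counts moved with their windows: 680 peaks in biosample 1 and 218 in biosample 2 with 25 kb flanks, 1689 and 534 with 100 kb flanks, and 584 and 194 with the stronger 50% of each list. The share of biosample 1 distal peaks that met a biosample 2 peak stayed between 30.2% and 33.2% under its 6 alternatives. The other promoter counts stayed within 1.5 times under windows of 500 and 2000 bp, the most upstream start site, hotspots, added ligand genes and, chosen after seeing the data, start sites of every transcript and peaks near no other gene. The unknown depth limits each comparison between the lists, and absence from the shorter list does not show closed chromatin.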

Other observations

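Ligand genes of the same families under other symbols were counted apart. A promoter peak in both lists was present at 2 of 8 chemokine genes (25%, 7.15 to 59.1) and 3 of 17 interleukin family genes (17.6%, 6.19 to 41). The share of all protein-coding genes was 51.8%. Of 8 chemokine genes, Cklf, with scores of 132 (percentile 93.8) in biosample 1 and 53 (78.1) in biosample 2, and Ccl27a, with 80 (63.5) and 14 (7.4), had a promoter peak in both lists. Pf4 and Ppbp, platelet chemokine genes inside the Cxcl5 to Cxcl2 cluster, had none, nor did Xcl1, Ccl21a, Ccl21b and Ccl27b. Of 17 interleukin family genes, the IL-6 family members Clcf1, with 146 (99.3) and 78 (94.3), and Ctf1, with 136 (95.5) and 53 (78.1), had one in both lists. So did Csf1, the macrophage growth factor gene and second ligand of the receptor that IL-34 binds, with 142 (97.9) and 68 (89.5). Il1rn, Lif, Cntf and Csf2 had one in the list of biosample 1 alone, with scores of 108, 90, 75 and 78. The other 10 genes, among them Tslp, Osm, Ebi3 and Csf3, had none.

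The widest hotspot near a start site was wider in biosample 1 than in biosample 2 at every member with a promoter peak in both lists. The widths were not compared over all genes, so this is not shown to be particular to the members. At Ccl25 it was 2914 bp in biosample 1 and 701 bp in biosample 2, at Ccl8 1963 and 490 bp, and at Ccl2 1777 and 403 bp. At Cxcl12 the biosample 1 hotspot was 4478 bp wide, with 12 peaks inside and a width that 0.117% of hotspots in that list reached, and the biosample 2 hotspot at its start was 181 bp wide. A further biosample 2 peak, 1.5 kb before the start with a score of 74 (92.6), also lay inside the wide biosample 1 hotspot.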
